A study of Mus musculus with 59 samples.

Results

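The 7 genes described here encode the main subunits of the fast glutamate receptors of the brain: the AMPA receptor genes Gria1, Gria2, Gria3 and Gria4 and the NMDA receptor genes Grin1, Grin2a and Grin2b. They were selected by a list of symbols, and are 7 of the 20689 genes in the table. Each was read across 59 single mouse cells labelled chemical-induced neurons, all aged 12 weeks, from a study of turning astrocytes into neurons with chemicals in the living brain. Per the labels, each cell was patched in vivo, and its content was drawn into the pipette and put into lysis buffer. The cells form 1 group, the labels name no animal and no compound, and no untreated neurons or astrocytes were analysed here. The 59 cells therefore count as 1 sample, no test was run, and the exact Clopper-Pearson 95% intervals below cover counting error over cells only.

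AMPA receptors are assemblies of subunits that open within milliseconds of glutamate release and carry most fast excitatory current. A receptor that contains the edited Gria2 subunit lets little calcium through, whereas a receptor without it is calcium-permeable. NMDA receptors need Grin1, which binds the co-agonist glycine or D-serine, together with a glutamate-binding subunit such as Grin2a or Grin2b, and they admit calcium when the membrane is depolarised. In the developing forebrain Grin2b is the early form and Grin2a rises after birth, so the balance of the pair is often used as a sign of neuronal maturity.

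The stretch that sets calcium permeability shows how the subunits differ, and is printed for 6 of the genes for that reason. Each line holds 60 coding bases of the pore loop from GENCODE M21 transcripts (build GRCm38), 5′ to 3′ on the coding strand, with 1 codon in capitals. In the AMPA genes that codon is the Q/R site, and in the NMDA genes it is the asparagine codon at the matching place in the pore.
Gria1, chr11:57243058-57243117, plus strand, exon 11: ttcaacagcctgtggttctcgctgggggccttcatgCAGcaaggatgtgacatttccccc
Gria2, chr3:80706890-80706949, minus strand, exon 11: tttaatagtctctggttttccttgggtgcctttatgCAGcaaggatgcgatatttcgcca
Gria3, chrX:41610229-41610288, plus strand, exon 11: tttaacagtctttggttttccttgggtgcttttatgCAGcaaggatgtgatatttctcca
Gria4, chr9:4464116-4464175, minus strand, exon 12: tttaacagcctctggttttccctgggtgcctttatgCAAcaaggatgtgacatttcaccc
Grin1, chr2:25297292-25297424, minus strand, exons 14 and 15: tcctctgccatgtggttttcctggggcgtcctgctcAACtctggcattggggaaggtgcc
Grin2a, chr16:9653540-9653599, minus strand, exon 8: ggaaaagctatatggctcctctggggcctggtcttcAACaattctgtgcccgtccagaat
The AMPA genes were close to each other in this stretch, from 47 identical bases of 60 between Gria1 and Gria2 to 55 between Gria2 and Gria3. An AMPA gene shared 17 to 26 with Grin1 or Grin2a. The Q/R codon of Gria2 reads CAG in the reference, as in Gria1 and Gria3. In most neurons the enzyme encoded by Adarb1 changes it in the RNA, and expression values cannot show whether that change took place in these cells.

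The values are FPKM, in which fragment numbers are divided by exon length and by sequencing depth. Levels of genes of different length can thus be set side by side, with a limit. The length that fits the values is that of all annotated exons of a gene, longer than its longest coding transcript. The lengths were 15548 against 10371 bases for Gria2, 9700 against 4276 for Grin1 and 6043 against 5546 for Gria1. Detection means an FPKM of at least 1 throughout. Depth was estimated from the spacing of low FPKM values, at 29028 to 2950402 fragments, with 912996 in the median cell. Between 475 and 10310 genes were detected per cell, with a median of 3984. At the median depth an FPKM of 1 stands for 5.52 fragments of Gria1, 5.61 of Gria4, 8.86 of Grin1, 9.00 of Gria3, 14.2 of Gria2, 16.4 of Grin2a and 22.7 of Grin2b. Of a list of 13 neuronal genes, 13 were detected in at least 30 cells, against 11.7% of all genes, with a median of 74.6% of cells. Markers of the labelled cell type were thus present in most cells, but oligodendrocyte genes were as widespread, with 9 of 10 in at least 30 cells and the same median.

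Gria2 and Gria1 were the receptor genes found in most cells, and the other 5 were each found in fewer than 30. Detection in at least 30 of the 59 cells was reached by 2 of the 7 genes, against 11.7% of all genes. The median gene of the table was detected in 11.9% of cells, and the median of the 7 was 40.7%. The number of cells fell from 40 for Gria2 through 32 for Gria1, 25 for Grin2b, 24 for Grin1, 22 for Gria3 and 18 for Gria4 to 17 for Grin2a. The intervals of each pair of neighbours in this order overlapped. The interval of Gria2 (54.4 to 79.4%) overlapped those of Gria1 and Grin2b and lay above those of the other 4.

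**Figure D1:**
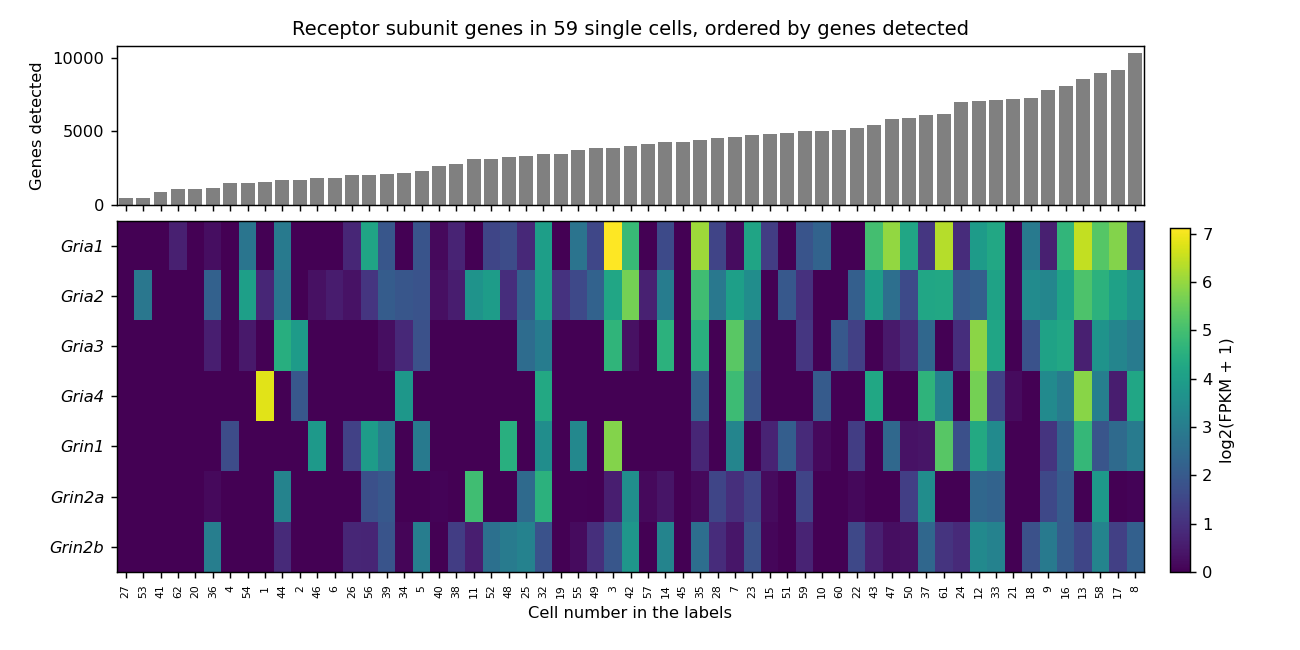
Level of each receptor gene in each cell as log2(FPKM + 1), with cells ordered from left to right by the number of genes detected, which the grey bars above show. Gria2 and Gria1 are filled across most of the map, Gria4 and Grin2a are at 0 in many columns, and the 5 cells with all 7 genes (12, 16, 32, 33 and 58) have from 3462 to 8989 genes detected.

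Among the AMPA genes, Gria1 (chr11:57011387-57330244) encodes a subunit that is brought to synapses during plasticity. It was detected in 32 cells (54.2%, interval 40.8 to 67.3%), with an FPKM from 0 through a median of 1.60 to 138.8 in cell 3. The next highest cell, number 13, had 87.6, and 20 cells had 5 or more. Over all 59 cells the mean was 12.9 with a larger SD of 26.3, since most cells were low and a few very high. Gria1 also had 10 cells above 0 but below an FPKM of 1.

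Gria2 (chr3:80681450-80802835), the subunit that limits calcium entry, was detected in 40 cells (67.8%, interval 54.4 to 79.4%). Its FPKM ran from 0 through a median of 3.45 to 49.0 in cell 42, with 34.2 in cell 13. The mean of 7.42 had an SD of 9.69, a smaller spread relative to the mean than that of Gria1. At least 1 fragment of Gria2 was recovered in 49 cells and at least 10 in 38.

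Gria3 (chrX:41400854-41678601) and Gria4 (chr9:4417896-4796234) encode the other AMPA subunits; Gria4 is a fast-gating form known from interneurons and early development. Gria3 was found in 22 cells (37.3%, interval 25.0 to 50.9%). Its median FPKM was 0.245, with a highest value of 58.7 in cell 12. Gria4 was found in 18 cells (30.5%, interval 19.2 to 43.9%), and its median was 0. The highest Gria4 value, 110.9, came from cell 1, where it rested on 63 fragments in a cell of 92393, and the next, 57.5, from cell 13. Gria4 was nearly all or nothing, with 2 cells above 0 but below an FPKM of 1.

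Grin1 (chr2:25291181-25319187), the subunit every NMDA receptor needs, was detected in 24 cells (40.7%, interval 28.1 to 54.3%). Its FPKM ran from 0 through a median of 0.124 to 54.7 in cell 3 and 37.9 in cell 61. Every detected value rested on at least 5 fragments. An antisense gene, Grin1os, shares 1307 of the 9700 exon bases of Grin1, and whether counting used strand is not given in the sources used here. Grin1os was itself detected in 1 cell, at an FPKM of 1.60.

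Grin2a (chr16:9567898-9995560) was detected in 17 cells (28.8%, interval 17.8 to 42.1%), the fewest of the members at an FPKM of 1. Above 0 it was found in 29 cells, more than the 20 of Gria4. Its FPKM had a median of 0 and reached 29.6 in cell 11 and 22.8 in cell 32; 6 cells had 5 or more. Grin2b (chr6:135713233-136173511) was found in 25 cells (42.4%, interval 29.6 to 55.9%), and its median was 0.688. It never exceeded 12.4, the value of cell 42, the lowest maximum among the 7 genes. Because of its length, Grin2b gave at least 10 fragments in 30 cells, more than the 25 that reached an FPKM of 1.

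**Figure D2:**
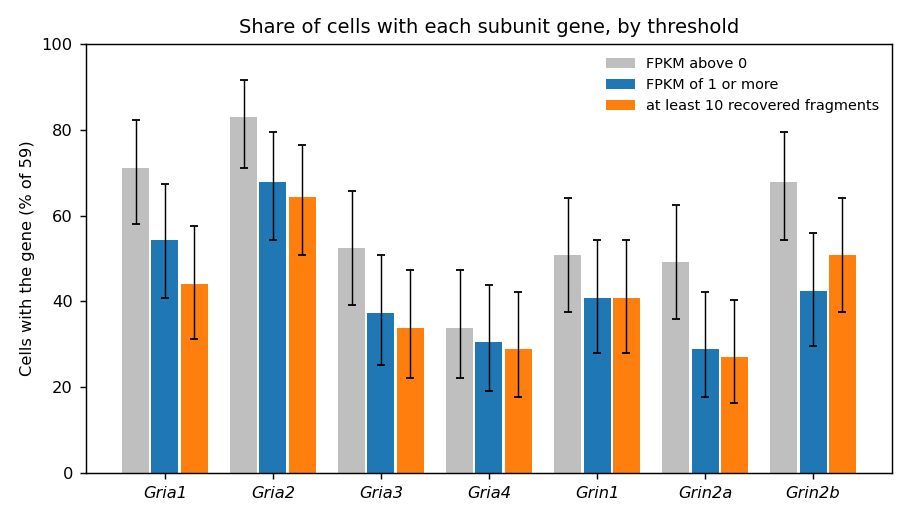
Percent of the 59 cells with each gene under 3 thresholds, with exact 95% intervals over cells. Gria2 is the most frequent gene under each threshold, Gria1 falls from 71.2% above 0 to 44.1% at 10 fragments, and Grin2b is the only gene with more cells at 10 fragments (50.8%) than at an FPKM of 1 (42.4%).

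At least 1 AMPA gene was detected in 46 cells (78.0%, interval 65.3 to 87.7%) and at least 1 NMDA gene in 39 (66.1%, interval 52.6 to 77.9%). Both kinds were found together in 35 cells (59.3%, interval 45.7 to 71.9%), an AMPA gene alone in 11, an NMDA gene alone in 4 and neither in 9. A set from which both receptors could be assembled, an AMPA gene with Grin1 and either Grin2a or Grin2b, was detected in 16 cells (27.1%, interval 16.4 to 40.3%), and 15 of these had Gria2. All 7 genes were detected in 5 cells, all 4 AMPA genes in 9 and all 3 NMDA genes in 7.

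The cells were diverse in their subunits. They held 34 distinct combinations of the 128 possible, and 21 of the combinations were seen in 1 cell each. Apart from none and all 7, the most frequent were Grin1 alone and Gria1, Gria2, Gria3, Grin1 and Grin2b together, with 3 cells each. The number of receptor genes per cell had a median of 3 and covered the whole range, with 9 cells each at 0, 1, 2 and 4 genes, 7 each at 3 and 5, 4 at 6 and 5 at 7.

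At the threshold, Grin1 was often found apart from Grin2a and Grin2b. Of the 31 cells with Grin2a or Grin2b, 16 also had Grin1 (51.6%, interval 33.1 to 69.8%), and 15 had no Grin1 at the threshold. Among these 15, Grin1 was just under the threshold in cell 59 (0.806, 2 fragments) and cell 35 (0.705, 12 fragments). It was at 0 in others, such as cells 11 and 42. A further 8 cells had Grin1 with neither Grin2a nor Grin2b. Of these 8, cell 46 had a Grin1 FPKM of 13.5 with Grin2a and Grin2b both at 0, and cell 7 had 8.50 with 0.932 and 0.359, just under the threshold. Other NMDA subunit genes were rarer than the 3 members: Grin2c was detected in 9 cells, Grin2d in 7, Grin3a in 5 and Grin3b in 1. Of the 9 cells with Grin2c, 8 had Grin1, 6 had Grin2b and 1 had Grin2a.

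Levels of the AMPA genes were compared within each of the 46 cells that had at least 10 AMPA fragments. These are not quite the 46 cells with an AMPA gene detected. Cells 38 and 40 are included with every AMPA gene below an FPKM of 1, and cells 2 and 19 are left out. Gria1 made up a median of 34.4% of the summed AMPA FPKM, Gria2 27.6%, Gria3 6.88% and Gria4 0%. Gria1 was the highest in 20 of these cells, Gria2 in 14, Gria3 in 7 and Gria4 in 5. Each gene ranged from 0% to at least 99.4% of the sum, so no share was common to all cells. These shares depend on the exon lengths used. The lengths exceed the longest coding transcript by more for Gria2 and Gria3 than for Gria1 and Gria4.

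Gria2 accompanied the other AMPA genes in most cells. Of the 40 cells with Gria1, Gria3 or Gria4, 34 also had Gria2 and 6 did not (15.0%, interval 5.71 to 29.8%). These 6 were not alike in evidence. Cell 48 held 22 Gria2 fragments at an FPKM of 0.920, just under the threshold, beside a Gria1 FPKM of 2.15. Cell 1 held 1 Gria2 fragment beside 63 of Gria4. The other 4, cells 2, 10, 15 and 60, held no Gria2 fragment. Cell 2 held 8 fragments of Gria3. A count of 0 allows up to 3 fragments, an FPKM of 3.32 in the shallow cell 2, 0.232 in cell 10, 0.101 in cell 15 and 0.0760 in cell 60. In cells 10 and 60 the other AMPA gene stood at 3.78 (Gria1, 19 fragments) and 2.92 (Gria3, 73 fragments), and in cell 15 Gria1 stood at 1.48 (17 fragments). In the opposite direction, Gria2 was the only AMPA gene in 6 cells.

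Pairs of members differed in how often they shared a cell. Gria1 and Gria2 were found together in 29 cells. All 17 cells with Grin2a also had Gria2, as did 23 of the 25 with Grin2b. Over the 59 cells, the Spearman correlation of FPKM was highest for Gria2 with Grin2b (0.677) and Gria1 with Gria2 (0.668), and lowest for Gria4 with Grin2a (0.209). All these points share the depth and the number of genes of their cell, so the correlations are given as description only.

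Grin2b was detected in more cells than Grin2a, but cells with Grin2a at an equal or higher level were also present. Both were detected in 11 cells (18.6%, interval 9.69 to 30.9%), Grin2b alone in 14 (23.7%, interval 13.6 to 36.6%), Grin2a alone in 6 (10.2%, interval 3.82 to 20.8%) and neither in 28. Among the 31 cells with either, Grin2b was higher in 20 (64.5%, interval 45.4 to 80.8%), an interval that includes 50%. The difference of log2(FPKM + 1), Grin2b minus Grin2a, had a median of 1.01 with quartiles of -0.60 and 1.62, an SD of 1.78 and a range from -4.33 to 3.01. These levels depend on the exon lengths used. The length was 17933 bases for Grin2a, against 14634 for its longest coding transcript, and 24842 against 24060 for Grin2b. The excess lowers the FPKM of Grin2a by more than that of Grin2b, and its part in this comparison was not tested.

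Where both were detected, neither dominated as a rule. Grin2b was higher in 6 of the 11 cells. Grin2a made up 22.7 to 90.1% of the summed FPKM, with a median of 45.6%, and lay between 25 and 75% in 9 of the 11. In cell 58 Grin2a stood at 13.2 (493 fragments) and Grin2b at 8.35 (431 fragments), and in cell 12 Grin2a stood at 4.19 (134 fragments) and Grin2b at 9.44 (418 fragments). Cell 32 was the farthest towards Grin2a, with 198 fragments against 30 of Grin2b.

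Cells called for a single form were less distinct by fragments. Of the 14 cells with Grin2b alone, 7 had 1 to 6 Grin2a fragments and 7 had none. In the latter 7 a count of 0 allows a Grin2a FPKM of up to 0.0693 to 1.33, which was below the Grin2b FPKM of the same cell in all 7. Cells 52 (311 fragments) and 48 (259 fragments) had the most Grin2b with no Grin2a fragment. All 6 cells with Grin2a alone held some Grin2b fragments. The most one-sided was cell 11, with a Grin2a FPKM of 29.6 from 451 fragments and a Grin2b FPKM of 0.522 from 11. The call of Grin2a alone thus rested on the threshold: with any fragment counted, 27 cells had both, 13 had Grin2b alone, 2 had Grin2a alone and 17 had neither.

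**Figure D3:**
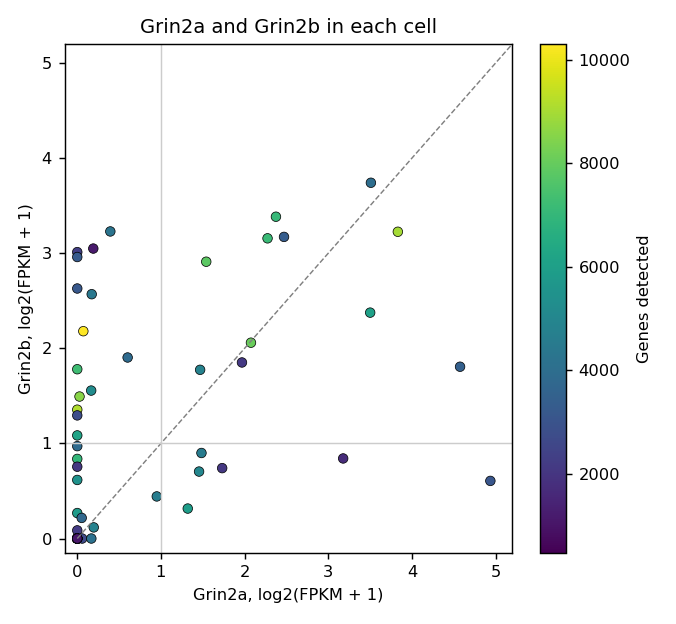
Grin2a against Grin2b in each of the 59 cells as log2(FPKM + 1), coloured by the number of genes detected; grey lines mark an FPKM of 1 and the dashed line equal levels. Of the 31 cells past a grey line, 20 lie above the dashed line, and cell 11 lies at the far right with a Grin2a FPKM of 29.6.

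Other genes used as signs of neuronal maturity were set beside this pair. For the chloride transporters, the late form Slc12a5 was detected alone in 14 cells, the early form Slc12a2 alone in 18 and both in 18. For the synaptic scaffolds, the later Dlg4 was detected alone in 11 cells, the earlier Dlg3 alone in 12 and both in 10. The early form of a pair was higher in 26 of 50 cells for the chloride transporters and 18 of 33 for the scaffolds, beside 20 of 31 for Grin2b. Single genes of the same list differed from this. Nefh and Kcnc1, genes of mature neurons, were detected in 27 and 24 cells, and the immature neuron genes Sox11 and Dcx in 13 and 6. Slc12a2 is also expressed by glia, and glial genes were common in these cells.

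Dcx or Sox11, genes of immature neurons, were detected in 14 cells. Grin2b was detected in 13 of them, Gria1 in 13, Grin2a in 5 and the set for both receptors in 10. These 14 cells had 3252 to 10310 genes detected, with a median of 6621.5, so they were also among the richer libraries. The part of this richness in the joint counts was not tested. These markers are 2 of the 8 measured genes of the immature neuron list. Cd24a, also detected in 14 cells, shared 7 of them with Grin2b and 7 with Gria1. Grin2b was found in 3 of the 8 cells with Tubb2b, 3 of the 5 with Neurod1 and 1 of the 3 with Eomes. Of the 8 measured genes, 0 were detected in at least 30 cells, against 11.7% of all genes. Their median was 9.32% of cells, near the 11.9% of the median gene of the table.

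The number of receptor genes rose with the number of genes detected in a cell. The 20 cells with the fewest other genes (475 to 2771) had a median of 1 receptor gene, the next 20 (3121 to 5010) had 3 and the 19 with the most (5020 to 10304) had 5. An AMPA gene together with an NMDA gene was found in 5, 15 and 15 of them, and the set for both receptors in 3, 3 and 10. The Spearman correlation of receptor genes with other genes detected was 0.576 over 59 cells, and with the estimated fragments it was 0.288. By gene, the correlation of FPKM with other genes detected was highest for Gria1 (0.493) and lowest for Grin2a (0.270). Gria4 went from 3 and 4 cells in the lower groups to 11 in the richest, while Grin2a was found in 3, 7 and 7.

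Some cells broke this relation. Cell 21 had 7219 genes detected and an estimated 2934694 fragments, yet held 7 fragments of the 7 receptor genes together and none at the threshold. Cell 45 had 4303 genes and no receptor fragment at all. Cell 60, with 5085 genes, had Gria3 alone. In contrast, cell 39 had 5 receptor genes among 2101 genes detected, and cells 44 and 56 had 4 each among 1683 and 2081.

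**Figure D4:**
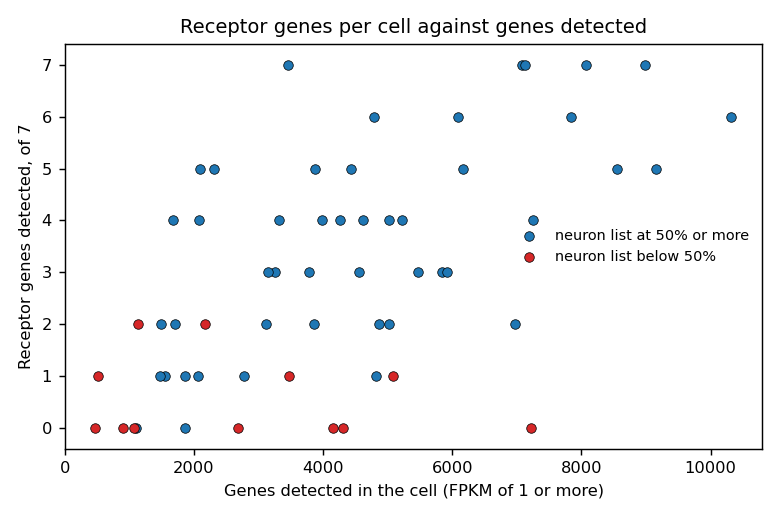
Number of the 7 receptor genes detected in each cell against all genes detected in it, coloured by whether at least 50% of the neuron list was detected. The 47 cells that reached 50% rise from 0 to 7 receptor genes along the axis, while the 12 that did not stay at 0 to 2, including cell 21 with 7219 genes.

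Receptor genes were found mainly in the cells with neuronal genes. At least 50% of the neuron list was detected in 47 cells, and 41 of these had an AMPA gene, 38 an NMDA gene and 16 the set for both receptors, while 2 had none of the 7. In the other 12 cells Gria1, Grin1 and Grin2a were detected in 0, which allows a share of up to 26.5% by the exact interval. Gria2 was detected in 4 of these 12, Gria3, Gria4 and Grin2b in 1 each, and 7 of the 12 had no receptor gene. Their median was 2426 genes detected, against 4429 in the 47. These 12 cells are no clean background, since some held neuronal genes or many receptor fragments. Cells 45, 57 and 62 had 38.5% of the neuron list, cell 36 had 142 Grin2b fragments and cell 53 had 124 Gria2 fragments. As a reading of background, genes of other tissues had a median of 8.47% of cells over 5 of them, from Krt5 in 1 cell to Cela1 in 12.

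Glial genes shared these cells. The oligodendrocyte list reached 50% in 46 cells, of which 37 had an AMPA gene and 32 an NMDA gene. For the microglia list these numbers were 31, 28 and 23, and for the astrocyte list 24, 23 and 20. Below 50%, an AMPA gene was found in 9 of 13 cells for oligodendrocytes, 18 of 28 for microglia and 23 of 35 for astrocytes. In these cells an NMDA gene was found in 7, 16 and 19. Cells at 50% or more thus had each kind of gene more often, as with the neuron list. They were also richer, with medians of 4366, 4871 and 5125 genes detected against 1714, 2091 and 3123. The part of this richness was not tested. Cell 21, with no receptor gene, had 100% of the oligodendrocyte and microglia lists and 30.8% of the neuron list. Oligodendrocyte precursors also use AMPA receptors. Their list had 0 of 6 genes detected in at least 30 cells, against 11.7% of all genes. A list of 6 is too short for 0 to differ clearly from that share. The list median was 6.78% of cells, beside 11.9% for the median gene of the table. Pdgfra, Cspg4, Neu4, C1ql1 or Gpr17 was detected in 12 cells, 9 of which had an AMPA gene, against 46 of all 59 cells. These 12 cells were also richer, as their median of 5654.5 genes compares with 3984 over all cells. The remaining gene of that list, Lhfpl3, was the most frequent, in 17 cells, of which 14 had Gria2, 9 Gria1, 9 Gria3 and 8 Gria4. The part of glial RNA in the receptor values was not tested.

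Receptor genes were found in cells with GABA genes and in cells with glutamate transporter genes, 2 groups that share cells. Of the 50 cells with a GABA gene (Gad1, Gad2 or Slc32a1), 42 had an AMPA gene, and all 16 cells with the set for both receptors were among the 50. A vesicular glutamate transporter gene was detected in 26 cells, 24 of which had an AMPA gene, 23 an NMDA gene and 8 the set. These 26 cells and the 50 with a GABA gene cannot be separate among 59 cells, so they are not distinct transmitter types. The 4 striatal genes Ppp1r1b, Meis2, Bcl11b and Foxp1 were detected together in 18 cells, 17 of which had an AMPA gene, 17 an NMDA gene and 10 the set. Over all 59 cells these numbers were 46, 39 and 16. The GABA, glutamate transporter and striatal groups had medians of 4285, 4827.5 and 5345.5 genes detected, against 3984 over all cells. The part of this richness in the joint counts was not tested here either.

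Related gene groups were described by the same measure, the share of cells with each gene, beside 11.7% of all genes in at least 30 cells. Of 11 other ionotropic glutamate receptor genes, including the kainate receptor subunits, 0 reached 30 cells. Their median was 15.3% of cells, with the kainate subunit gene Grik2 the highest in 15 cells. Of 7 metabotropic glutamate receptor genes, 1 reached 30 cells: Grm5, a postsynaptic receptor, in 32. Grm2 was the lowest, in 4, and the median was 15.3%.

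Partners that build and hold the receptors had higher list medians than these, but genes within a list differed widely. The SD over genes was 16.3 for the auxiliary list and 19.0 for the metabotropic list. Of 14 AMPA auxiliary subunit genes, 2 reached 30 cells, a share near the 11.7% of all genes, and the median was 22.9%. The 2 were Cacng2 (stargazin, which carries AMPA receptors to the synapse) and Cnih2 (a cornichon, which slows channel closing), in 31 cells each. Cacng8 was the lowest in 3. Of the 46 cells with an AMPA gene, 44 had at least 1 auxiliary gene, and 39 had Cacng2, Cacng3, Cacng4 or Cacng8. Over all cells, 52 of 59 had an auxiliary gene. Of 9 AMPA trafficking genes, 2 reached 30 cells, Nsf in 46 and Gripap1 in 33, and Grip2 was the lowest in 4. Nsf, an ATPase of membrane fusion that also binds the Gria2 subunit, has general roles in every cell.

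Of 12 genes for postsynaptic anchors and kinases, 5 reached 30 cells, with a median of 38.1%. Nrgn, a calmodulin-binding protein of dendrites, was the highest in 50 cells, and the scaffold gene Shank3 the lowest in 5. Dlg4 (PSD-95, which anchors NMDA receptors) was detected in 21 cells, and 20 of the 39 cells with an NMDA gene had it. All 21 cells with Dlg4 had Gria2. Of 8 measured genes for NMDA co-agonists and modulators, 1 reached 30 cells, the kinase gene Ptk2b in 35; the transporter gene Slc7a10 was the lowest in 6, and the median was 28.8%.

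The enzymes of RNA editing were less frequent than Gria2. Adarb1, which edits the Q/R codon shown above, was detected in 19 cells, Adar in 18 and Adarb2 in 5. Of the 40 cells with Gria2, 11 had Adarb1 and 19 had Adar or Adarb1 at the threshold.

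**Figure D5:**
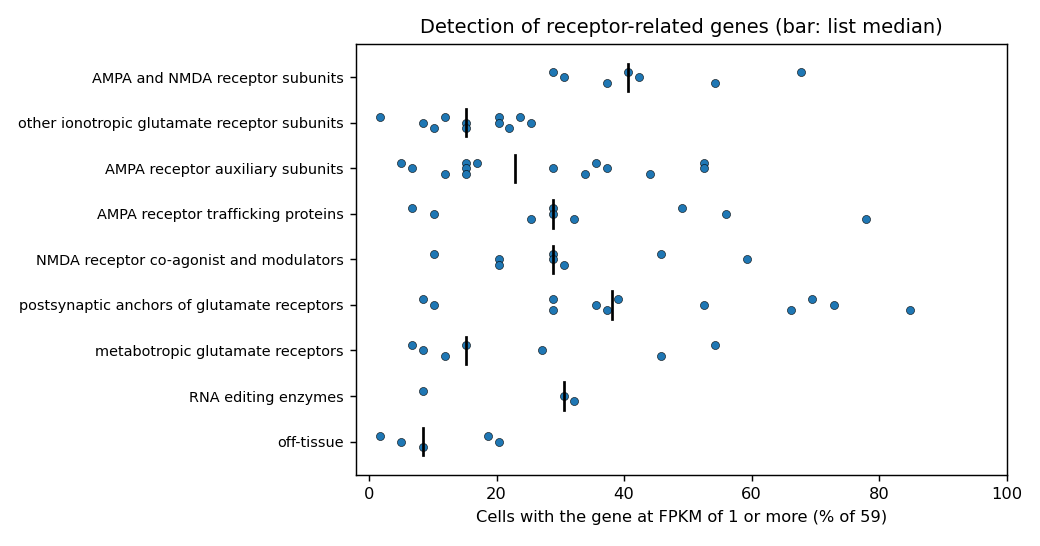
Percent of the 59 cells with each gene of the receptor list and of 8 other lists, 1 point per gene, with a bar at the list median. The receptor genes have a median of 40.7%, the other ionotropic receptor genes 15.3%, and genes of other tissues 8.47%.

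For each member, the genes whose FPKM followed it most closely over the 59 cells were taken from 8035 genes by Spearman correlation. Grin2b had the closest match of all, Brinp1 (0.786), followed by the scaffold gene Dlgap1 (0.737) and Wipf3 (0.732). Grin2a was matched by Lamp5 (0.756), the sodium channel gene Scn2a1 (0.659) and the neuropeptide gene Npy (0.594). Grin1 was matched by Kpna6 (0.679), Slc6a17 (0.658) and Dlg4 (0.654).

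The nearest genes of the AMPA genes were taken in the same way. Gria2 was matched by Rtn1 (0.739), Rgs4 (0.723) and the sodium channel gene Scn2b (0.721), and all 30 cells with Scn2b had Gria2. Gria1 was matched by Rnf112 (0.714), Elmod1 (0.703) and the dendritic gene Map2 (0.702). Gria3 was matched by Ociad2 (0.707), 5730409E04Rik (0.687) and Sowaha (0.682), and Gria4 by Fam69b (0.661), the synaptic adhesion gene Lrrtm3 (0.655) and Pfkm (0.650). No gene was among the nearest of more than 1 member. When the number of genes detected was held fixed by partial rank correlation, 16 of the 21 stayed among the nearest, with values of 0.738 for Lamp5 and 0.742 for Brinp1.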

How the data were processed

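The data are RNA-seq profiles of 59 single cells. The authors deposited 1 table of FPKM, with 20740 features, of which 51 are ERCC spike-ins. The submitters' processing notes list STAR 2.5.3a, featureCounts 1.5.3 and GRCm38. Not given in the sources used here are the annotation release, the strandedness and how multi-mapped reads were counted.

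Exon lengths came from GENCODE M21 (19358 genes). The depth of each cell is the fragment total that makes FPKM times length whole: a median of 73.3% of values up to 20 fragments came out whole within 0.02, so FPKM was kept and no count model was used. For Gria4 the deposited steps fit a length of 6146 in place of 6305. Depths were recovered within 1% in 59 of 59 simulated cells with 19358 genes. No 2 cells had identical values. Lists of related genes hold 3 to 14 genes, and Dao was not analysed here. A pore sequence and a further maturation pair are not reported here. Lists of cell type markers were matched by symbol. Members and lists were chosen with earlier results of these data known. Genes named are all 7 members, the highest and lowest of each list and those in joint counts, and the 3 genes closest to each member among those detected in at least 12 cells. Grin2c, Grin2d, Grin3a, Adar, Tubb2b, Neurod1, Eomes, Nefh and Kcnc1 were named in addition, after their values were seen. The cells form 1 group without named animals, so no p-value was computed. Python 3.11.15, pandas 2.3.3 and scipy 1.17.1 were used. Alternatives were an FPKM above 0 or of 5, at least 10 fragments, each cell rescaled to 1000000, cells with at least 2000 genes, 500000 fragments or 50% of the neuron list, pseudocounts of 0.1 and 10, and no filter or a partial correlation for the similar genes.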

Additional observations from a re-analysis of the deposited data

How the results depend on the processing

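Of 158 values recomputed for 23 results, 129 moved by less than their interval or spread, 29 moved further and 0 changed direction. Most results are shares of cells, which have no direction to change. For medians the spread was the SD over cells or genes, a wide limit. The median of 3 receptor genes per cell became 1 at an FPKM of 5 and counted as moved by less. So did the metabotropic list median, 15.3% and then 30.5% with any FPKM above 0. The Grin2b minus Grin2a median also did, 1.01 and then 0.209 with a pseudocount of 10. The detection threshold mattered most. With any FPKM above 0, 91.5% of cells had an AMPA gene, 78.0% an NMDA gene, 76.3% both and 44.1% the set for both receptors. Grin2a and Grin2b were then together in 45.8% of cells and Grin2a was alone in 3.39%, and the other ionotropic receptor genes had a median of 23.7%. At an FPKM of 5 these shares were 54.2% for an AMPA gene, 40.7% for an NMDA gene, 30.5% for both, 5.08% for the set and 3.39% for Grin2a with Grin2b, and the median was 6.78%. Among single genes, the share above 0 and at an FPKM of 5 was 71.2% and 33.9% for Gria1, 83.1% and 42.4% for Gria2, 52.5% and 23.7% for Gria3, 49.2% and 10.2% for Grin2a, and 67.8% and 18.6% for Grin2b. Grin1 was at 23.7% at an FPKM of 5. With each cell rescaled to a sum of 1000000, Grin2a was alone in 3.39% of cells and Grin2b was detected in 57.6%. In the 47 cells with at least 50% of the neuron list, 80.9% had an NMDA gene, 72.3% had both kinds and 68.1% had Gria1, under a choice of cells by related genes. Without the filter on low genes, 19 of the 21 similar genes were the same. Depth limits each absence: in the shallowest cell, of 29028 fragments, none of the 7 genes gave a fragment. No paired analysis was possible because the labels give 1 group.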
